A study of Mus musculus with 4 samples.

Results

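The 6 genes of type IV collagen, Col4a1, Col4a2, Col4a3, Col4a4, Col4a5 and Col4a6, were followed through single cells of mouse kidney glomeruli from young and aged animals. They were chosen by their symbols, and all 6 were found among the 52636 genes of the count matrices. There were 2 young and 2 aged libraries, called replicates 1 and 2 of each group. The glomeruli were caught on a magnet after beads had been perfused through the mice, digested to single cells and made into droplet 3' libraries, and no treatment was given to either group. How old the mice were, their sex and strain, and how many stand behind a library are not given in the labels used here, so p-values measure only the spread between these 4 libraries, which may be technical.

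Type IV collagen is the network-forming collagen of basement membranes, the sheets on which epithelial and endothelial cells sit. Its chains leave the cell as heterotrimers that contain chains from Col4a1 with Col4a2, from Col4a3 with Col4a4 and Col4a5, or from Col4a5 with Col4a6. In the mature glomerular filter the trimer of Col4a3, Col4a4 and Col4a5 is made by podocytes, the epithelial cells that wrap the capillaries, and mutations of its genes cause Alport syndrome. The trimer of Col4a1 and Col4a2 belongs to the mesangial matrix and to the endothelial side of the capillary wall, and the Col4a5 and Col4a6 trimer to Bowman's capsule, which parietal epithelial cells line.

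The 6 genes lie in 3 pairs that are read away from each other. In GENCODE vM21 on GRCm38, Col4a1 (ENSMUSG00000031502) covers chr8:11198423-11312826 on the minus strand and Col4a2 (ENSMUSG00000031503) chr8:11312805-11449287 on the plus strand, and the ends of these models overlap by 22 bases. Col4a4 (ENSMUSG00000067158, chr1:82448423-82586849, minus strand) and Col4a3 (ENSMUSG00000079465, chr1:82586921-82722059, plus strand) are separated by 71 bases. Col4a6 (ENSMUSG00000031273, chrX:141165403-141474076, minus strand) and Col4a5 (ENSMUSG00000031274, chrX:141475385-141689234, plus strand) are 1308 bases apart. Reads from overlapping genes could blur a chain's count, but the largest such gene, Gm44716 on the strand of Col4a1, had 480 UMIs in the kept cells against 37861 of Col4a1. C430014B12Rik on the strand opposite to Col4a3 had 116 against 30772.

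The sequences between the paired start sites are shown because partners of a pair are compared throughout. Of the 6 genes, 5 had an entry in the RefSeq promoter table of GRCm38, and Col4a3 had none. The first line is the whole interval between Col4a4 and Col4a3 at chr1:82586850-82586920, on the strand of Col4a4, with 69.0% G and C. The second is chrX:141475169-141475369 on the plus strand, before Col4a5, with 49.8% G and C. The third is chrX:141474096-141474326 on the minus strand, before Col4a6, with 45.5%. Capitals mark the motif CCAAT, and all lines run 5′ to 3′.
Col4a4 and Col4a3 interval: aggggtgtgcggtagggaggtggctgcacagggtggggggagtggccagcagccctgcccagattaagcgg
Col4a5 promoter: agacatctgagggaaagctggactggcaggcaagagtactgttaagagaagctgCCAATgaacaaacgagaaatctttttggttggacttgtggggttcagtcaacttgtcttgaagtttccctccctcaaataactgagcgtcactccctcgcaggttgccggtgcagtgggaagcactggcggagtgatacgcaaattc
Col4a6 promoter: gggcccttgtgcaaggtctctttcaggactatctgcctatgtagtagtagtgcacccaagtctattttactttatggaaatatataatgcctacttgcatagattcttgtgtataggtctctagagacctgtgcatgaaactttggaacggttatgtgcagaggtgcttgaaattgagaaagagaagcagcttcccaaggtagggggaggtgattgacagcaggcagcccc
Besides CCAAT, the GC box GGGCGG was searched on both strands, and so was the TATA box, spelled TATAAA. The 71-base interval held none of these motifs, which 13.3%, 20.7% and 4.41% of all promoter windows cut to that length held, in the order named. The Col4a5 window held 1 CCAAT, as did 28.6% of windows of 201 bases, and neither of the other motifs. The Col4a6 window held none, against 32.3%, 30.0% and 11.8% of windows of 231 bases. In the whole 300-base windows, which run past the start sites, Col4a5 and Col4a6 each held 1 GC box, as did 35.7% of all such windows, and Col4a4 held none.

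The matrices held 33323 cell barcodes and between 18457791 and 42046542 unique molecular identifiers (UMIs, 1 per captured transcript end) per library, of which between 5035 and 9187 cells per library were kept. Cells were grouped by clustering and named from marker genes, so podocyte here means podocyte-like, and so on. Nphs1, the slit diaphragm gene, was at 11.2 to 12.5 UMIs per 10000 in podocytes, Emcn at 37.2 to 45.4 in endothelial cells, Ptn at 25.6 to 35.5 in mesangial cells and Acta2 at 72.8 to 104 in smooth muscle and renin cells. In parietal epithelial cells Cldn1 was at 1.80 to 3.40, while Cdh6 reached at most 0.0901 and Mal2 was at 0 in every library. Young replicate 2 stood apart: 52.6% of its kept cells sat in clusters with markers of more than 1 cell type, against 1.93% in young replicate 1 and 1.21% and 1.38% in the aged libraries. Those cells were left out of all classes, but other random seeds of the same clustering named 1127 and 1352 podocytes in that library in place of 565. Values that move with the seed or with that library are given beside the results, and libraries shared between 0.163% and 0.346% of the barcodes of the smaller one.

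Col4a3 and Col4a4 were highest in podocytes in every library. All levels below are UMIs of a chain per 10000 UMIs of the class, not divided by transcript length, so each chain is compared with itself across cells and libraries. In podocytes Col4a3 was at 11.6 and 13.8 in young replicates 1 and 2 and at 12.01 and 12.3 in the aged ones. Col4a4, its partner in the trimer and on the chromosome, was at 8.44 and 10.2 in young and 8.57 and 9.04 in aged libraries. Col4a5 was at 1.86 and 2.64 in young and 1.91 and 1.94 in aged libraries. For each of these chains young replicate 2 was the highest library and the other 3 lay close together. Col4a6 was at 0.100 and 0.103 in young and at 0.1497 and 0.161 in aged podocytes. Col4a1 did not pass 0.0673 and Col4a2 did not pass 0.0256 in any podocyte library.

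**Figure D1:**
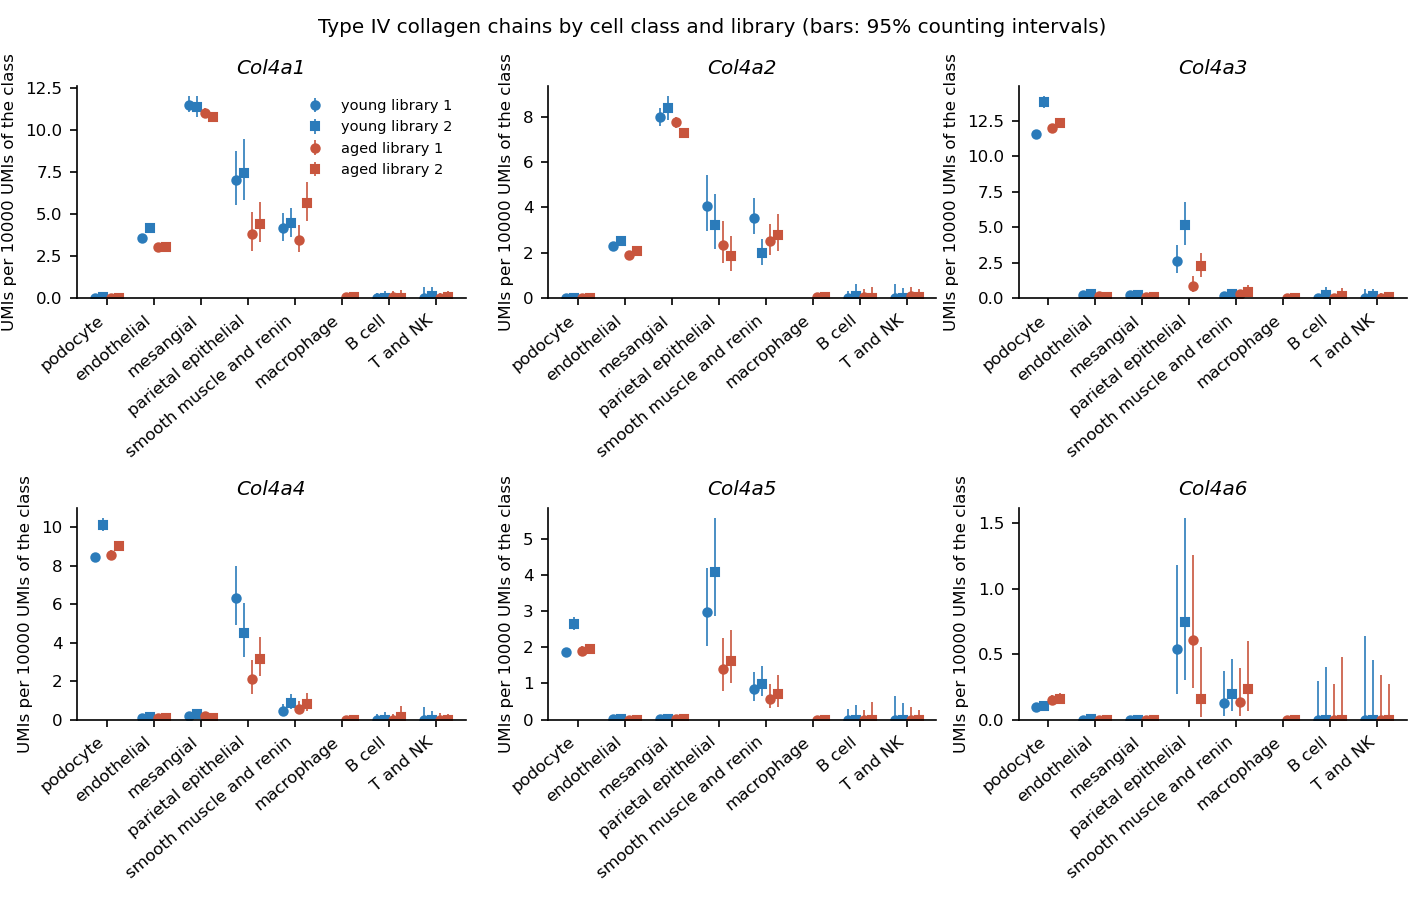
UMIs of each type IV collagen chain per 10000 UMIs of the cell class (linear axes from 0, 1 panel per chain) in podocytes, endothelial, mesangial, parietal epithelial, and smooth muscle and renin cells and in 3 classes of immune cells. Each point is 1 library with its 95% counting interval, young in blue and aged in red: Col4a3 stands between 11.6 and 13.8 in podocytes, and Col4a1 between 10.8 and 11.5 in mesangial cells.

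Col4a1 and Col4a2, the chains of the mesangial and endothelial matrix, were highest in mesangial cells. Col4a1 was at 11.5 and 11.4 in young and 11.0 and 10.8 in aged mesangial libraries, and Col4a2 at 7.99 and 8.37 in young and 7.75 and 7.28 in aged ones. Parietal epithelial cells, with only 25, 29, 28 and 23 cells in the 4 libraries, came next for Col4a1 by the median over libraries. Col4a1 there was at 7.03 and 7.49 in young and 3.84 and 4.40 in aged libraries. Smooth muscle and renin cells held it at 4.19 and 4.46 in young and at 3.50 and 5.66 in aged libraries, and endothelial cells at 3.56 and 4.19 against 3.03 and 3.06. The mesangial libraries did not overlap with those of any of these classes, whereas the parietal, smooth muscle and endothelial ranges overlapped one another. Col4a2 was at 1.91 to 2.54 in endothelial, 1.99 to 3.56 in smooth muscle and 1.85 to 4.06 in parietal cells, ranges that overlap. In the aged libraries its mean was 2.10 in parietal and 2.66 in smooth muscle and renin cells. These differences between classes are a description, since the clusters were made from the same cells.

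All 6 chains had UMIs in the parietal epithelial cells of every library. Col4a5 there was at 2.97 and 4.06 in young and at 1.40 and 1.62 in aged libraries, so that both young libraries lay above and both aged ones below the podocytes of the same library. Col4a6, the chain of Bowman's capsule, was at 0.541 and 0.749 in young and 0.610 and 0.155 in aged libraries, on 6, 7, 7 and 2 UMIs. Col4a4 was at 6.31 and 4.49 in young and at 2.09 and 3.17 in aged libraries, and Col4a3 at 2.61 and 5.13 against 0.872 and 2.24. For both chains every parietal library lay below every podocyte library. Smooth muscle and renin cells held Col4a5 at 0.583 to 0.997 and Col4a6 at 0.127 to 0.234, the latter overlapping with podocytes.

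By number, most of the Col4a3 UMIs came from podocytes. In young replicate 1 podocytes gave 94.6% of the Col4a3 UMIs of all kept cells, 93.4% of those of Col4a5 and 81.9% of those of Col4a6. In young replicate 2, where most kept cells stayed unnamed, the shares were 61.1%, 59.1% and 42.1%. In the aged libraries podocytes gave 90.1% and 87.6% of Col4a3 and 78.3% and 65.8% of Col4a6. Parietal epithelial cells, few as they were, gave between 1.67% and 9.21% of the Col4a6 UMIs. Col4a1 was divided: mesangial cells gave 32.1% and 22.2% of it in young against 47.3% and 47.5% in aged libraries, and endothelial cells 31.0% and 26.5% against 41.5% and 36.0%. These shares follow the number of cells of each class that were captured and named.

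At a common depth of 1000 UMIs per cell, Col4a3 was found in 64.8% and 70.6% of young and in 64.0% and 67.8% of aged podocytes. Before thinning these shares were 95.0%, 94.2%, 96.4% and 98.5%. Cells with fewer than 1000 UMIs were left out of every thinned share. Col4a1 was found in 69.1% and 64.6% of young and 61.6% and 54.8% of aged mesangial cells, and in 28.6% and 32.2% of young and 23.5% and 24.2% of aged endothelial cells. In both classes the aged shares were below the young ones, and the levels per 10000 had the same order. B cells, which do not form basement membrane, were taken as a gauge of the RNA free in the droplets, which was not tested. Cells rich in markers of another class had been left out of them, as of every class. Before that step the B cell cluster held Col4a3 at 1.84 per 10000, and after it the libraries were at 0 to 0.219. Before thinning the median depth of the named B cells was 1198.5 to 1662.5 UMIs, against 2312 to 3225 in endothelial and 3824 to 7254 in mesangial cells. Among 88, 51, 97 and 42 thinned B cells, a Col4a3 UMI was seen in 0, 2, 0 and 1, or 0%, 3.92%, 0% and 2.38%, and the counts of 0 allow up to 3.41% and 3.09%.

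At the same depth Col4a3 was seen in 2.57% and 2.95% of young and 1.64% and 1.26% of aged endothelial cells. These shares lie at or below what the few B cells allow. Macrophages, which do not form basement membrane either, gave a tighter comparison in the aged libraries, where 0 of 563 and 0 of 499 thinned cells had a Col4a3 UMI, which allows shares of up to 0.533% and 0.601%. Per 10000 UMIs, Col4a3 was at 0.00290 and 0.0142 in aged macrophages (on 1 and 7 UMIs) against 0.175 and 0.121 in aged endothelial cells. Aged endothelial cells were thus above the macrophages of the same library beyond counting error. Macrophages were deeper, with medians of 5737 and 8835 UMIs. The part of that depth in the difference was not tested. Only 3 and 11 macrophages were named in the young libraries, and 0 of 51 and 0 of 28 young monocytes and dendritic cells allow shares of up to 5.88% and 10.7%, so no background was resolved there. In mesangial cells Col4a3 was seen in 1.45% and 4.42% of young and in 0.444% and 0.567% of aged cells, and Col4a4 in 2.18% and 2.21% against 1.19% and 0.567%. The 4.42%, or 8 of 181 cells (95% Wilson interval 2.26% to 8.48%), overlaps with the B cells of the same library, at 1.08% to 13.2%. In aged mesangial cells the levels per 10000, 0.103 and 0.0585, were above those of aged macrophages, while the thinned Col4a3 shares were below what the counts of 0 in macrophages allow. Whether these UMIs were made in the endothelial and mesangial cells or came from podocytes was not tested. The ratio of Col4a3 to Col4a4 UMIs was 1.36 to 1.40 in podocytes, 1.59 to 2.19 in endothelial cells and 0.580 to 1.16 in mesangial cells. Outside podocytes it rests on few UMIs, such as 30 of Col4a3 and 34 of Col4a4 in mesangial cells of young replicate 2. Its counting error was not computed, and whether it differs from that of podocytes was not tested. In parietal epithelial cells Col4a3 was found in 24.0% and 30.0% of young and in 0% and 13.04% of aged cells, and Col4a4 in 44.0% and 40.0% against 25.0% and 8.70%. The 0 of 28 cells in aged replicate 1 allow a share of up to 10.7%.

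The genes whose levels followed a chain most closely were listed over 39 sums of 12 classes, among 13134 genes. Nearest to Col4a1 were Pdgfd (Pearson's r 0.95), Jam3 (0.95), Col4a2 (0.94) and Fzd4 (0.93), and nearest to Col4a2 was Lmcd1 (0.97). Col4a3 was nearest to Enpep (0.94), Col4a4 (0.93), Gas1 (0.92) and Aplp1 (0.91), and Col4a4 to Lgr4 (0.94). Col4a5 was nearest to Chmp4c (0.97), F3 (0.96), Plce1 (0.95) and C1qtnf7 (0.94). Partners of a chromosomal pair were thus among the closest genes for Col4a1 and Col4a3, while r between Col4a1 and Col4a3 was 0.37. Col4a5 followed Col4a4 at 0.93, Col4a6 at 0.87 and Col4a3 at 0.86. The sums of a class share clusters and those of a library share its depth, so these r are descriptions.

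Between young and aged podocytes none of the 6 chains passed the test, where 6.45% of the 10905 tested genes did (703 genes, 458 higher and 245 lower in aged). The edgeR quasi-likelihood test on UMIs summed per library gave 1 chain, Col4a6, an unadjusted p under the 0.05 threshold. DESeq2 called 267 genes. The 3 chains of the glomerular trimer had narrow intervals around 0. Col4a3, from 8910 and 4319 UMIs in young and 6655 and 6043 in aged libraries, differed by -0.00 on the log2 scale (SE 0.14, 95% interval -0.29 to 0.29, edgeR adjusted p = 1.00). Col4a4 differed by -0.02 (SE 0.14, -0.30 to 0.27, adjusted p = 0.976) and Col4a5 by -0.15 (SE 0.14, -0.44 to 0.13, adjusted p = 0.658). In each of the 3 the young and aged libraries overlapped. Without young replicate 2 the differences were 0.09, 0.08 and 0.07, and none was called.

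Col4a6 was the only podocyte chain with both aged libraries above both young ones, which held for 23.5% of all tested podocyte genes. It rests on few counts, 77 and 32 UMIs in young and 83 and 79 in aged libraries, and the log2 difference was 0.67 (SE 0.22, 95% interval 0.23 to 1.11, edgeR adjusted p = 0.0600). It was called under 1 of 16 alternatives, the strict filter on cells (adjusted p = 0.0399), and adjusted p-values ran up to 0.606 under the others. Markers of parietal epithelial cells, where Col4a6 is also found, summed to 0.812 and 1.07 per 10000 in young and 0.547 and 0.577 in aged podocytes, with 5 or 6 of 9 markers seen and Cdh6 and Mal2 at 0 throughout. Their part in the result was not tested.

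The podocytes came from 4 clusters with unequal ages. The one led by Gas1, Nupr1 and Gadd45a held 66 and 63 young but 475 and 344 aged cells, and its Col4a3 was at 13.3 and 14.4 in young and 12.3 and 12.6 in aged libraries. The largest, led by Gas1 and Dpp4, held 867 and 295 young but 184 and 86 aged cells, with Col4a3 at 11.6 and 13.2 against 12.1 and 11.3. In the third, led by Clic3 and Nphs1, it was at 10.7 and 13.4 against 10.8 and 14.6, and in the last at 12.4 and 15.2 against 11.2 and 11.1. Aged libraries lay below the young ones in 2 of these 4 clusters and above them in 0. Col4a6 was above in 3 of the 4, at 0.0927 and 0.0738 in young and 0.136 and 0.169 in aged libraries of the mostly aged cluster. Without that cluster, its log2 difference was 0.62 with an edgeR adjusted p of 0.241. The share of all podocyte genes with either order in single clusters was not computed.

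In endothelial cells 1 of 4 tested chains, Col4a3, passed the test at its threshold, and it was lower in aged cells. Of all 12993 endothelial genes 6.24% passed (811 genes, 535 higher and 276, or 2.12%, lower), and DESeq2 called 526. All 4 tested chains were lower in both aged than in both young libraries, which held for 24.7% of all endothelial genes. Col4a1, from 2210 and 1607 UMIs in young and 4757 and 4751 in aged libraries, differed by -0.22 (SE 0.15, 95% interval -0.53 to 0.09, edgeR adjusted p = 0.474). Col4a2 had 1417 and 974 UMIs in young and 2997 and 3225 in aged libraries and differed by -0.15 (SE 0.14, -0.45 to 0.15, adjusted p = 0.650). For both of these chains the 95% interval of the difference included 0.

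Col4a3 in endothelial cells, at a level far below that of podocytes, had 149 and 102 UMIs in young and 275 and 188 in aged libraries, or 0.240 and 0.266 per 10000 against 0.175 and 0.121. The log2 difference was -0.64 (SE 0.19, 95% interval -1.04 to -0.24, edgeR adjusted p = 0.0493). It was called under 5 of 17 alternatives and lost its call under the other 12. Its adjusted p was 0.0514 without young replicate 1, 0.0521 without young replicate 2, 0.408 without aged replicate 2, where the difference was -0.40, and 0.191 by DESeq2. Without the clusters with activation genes it was -0.82 with an adjusted p of 0.0196. Col4a4 had 68 and 54 UMIs in young and 152 and 118 in aged libraries and differed by -0.39 (SE 0.22, -0.84 to 0.07, adjusted p = 0.356). Col4a5 did not pass 0.0235 per 10000 and Col4a6 had 1, 1, 0 and 0 UMIs, so neither was tested.

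The endothelial cells formed 14 clusters, between which Col4a1 spanned 0.903 to 6.98. The highest was a cluster led by Dlk1, Ednrb, Rtl1 and Hapln1, with Col4a1 at 6.33 and 6.98 in young and at 6.24 and 5.36 in aged libraries. The lowest was led by Fbln2, Egfl8, Mgp and Fbln5, with Col4a1 at 2.60 and 1.41 against 0.903 and 1.23. Its median Col4a2 was 0.291, against 4.03 in the highest cluster. Of the clusters led by Sele, an adhesion gene of activated endothelium, one held Col4a1 at 5.97 and 4.97 in young against 3.73 and 4.48 in aged libraries, and another at 4.60 and 5.46 against 3.19 and 2.88.

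**Figure D2:**
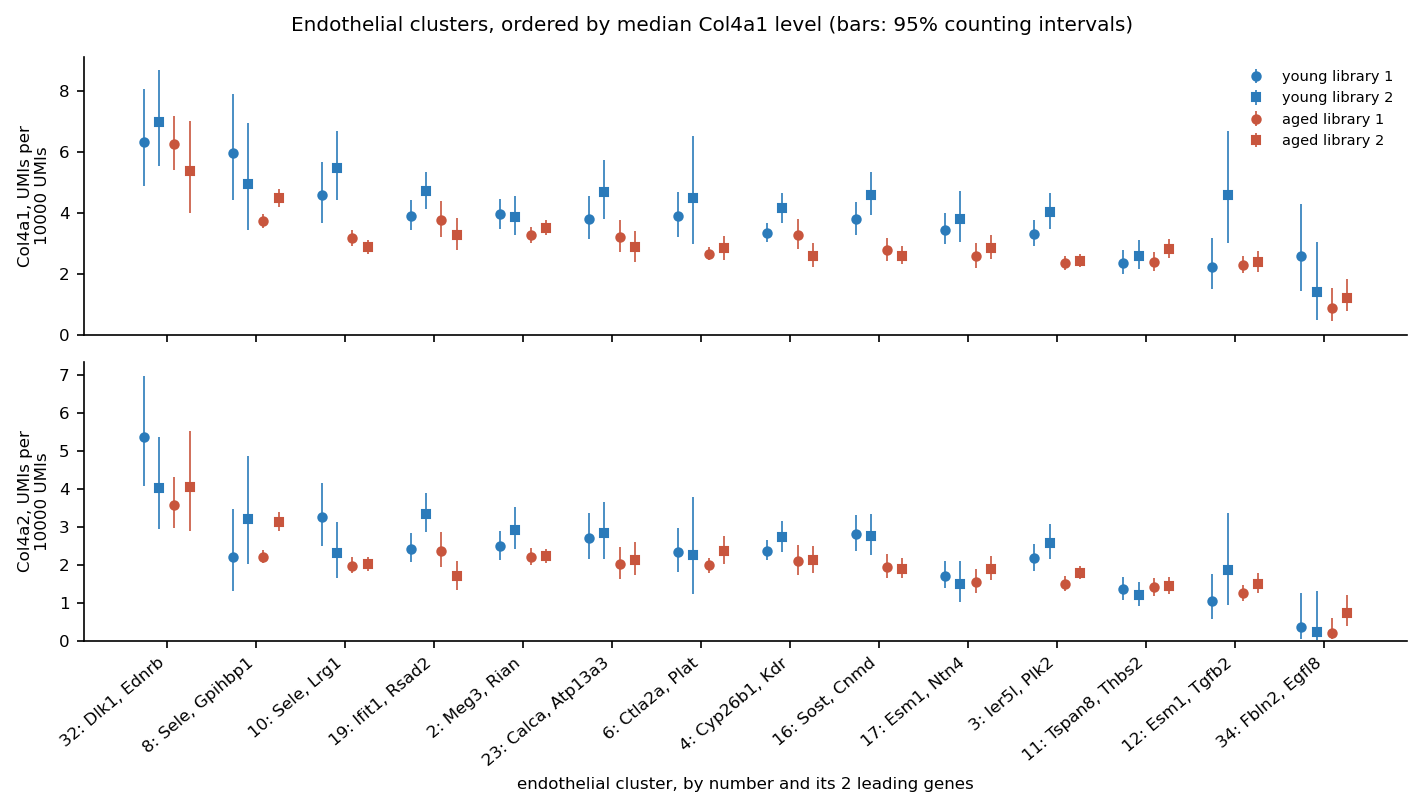
Col4a1 (top) and Col4a2 (bottom) in the 14 endothelial clusters, as UMIs per 10000 UMIs of the cluster, 1 point per library with its 95% counting interval, young in blue and aged in red. For Col4a1 the aged libraries lie below both young ones in 12 of 14 clusters, and the share of all genes with that order was not computed.

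Both aged libraries were below both young ones in 12 of the 14 endothelial clusters for Col4a1, and above them in 0. For Col4a2 this was 7 below and 1 above, for Col4a3 8 and 0, and for Col4a4 4 and 0. Clusters of 1 library share its depth and its preparation, so these counts are not independent. The share of all genes with such an order in single clusters was not computed.

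Neither Col4a1 nor Col4a2 was called in mesangial cells, where their levels are high. Col4a1 had 2292 and 1346 UMIs in young and 5428 and 6265 in aged libraries and differed by 0.05 on the log2 scale (SE 0.16, 95% interval -0.29 to 0.38, edgeR adjusted p = 0.901). Col4a2 differed by 0.00 (-0.33 to 0.33, adjusted p = 0.999), and with the size factors of that fit the libraries of both chains overlapped, although per 10000 UMIs both aged libraries lay below both young ones. Among the mesangial genes tested, 7.70% of 10941 passed (842 genes, 529 higher and 313, or 2.86%, lower), and 1 of the 4 chains tested, Col4a3, was among the lower ones. DESeq2 called 415 genes.

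Col4a3 UMIs found with mesangial cells were few, and they fell. They numbered 50 and 30 in young and 51 and 34 in aged libraries, or 0.252 and 0.254 per 10000 against 0.103 and 0.0585. Both aged libraries were thus below both young ones, as for 27.5% of mesangial genes, and the log2 difference was -1.53 (SE 0.32, 95% interval -2.21 to -0.85, edgeR adjusted p = 0.00980). Without young replicate 1 it was -1.52 with an adjusted p of 0.103, without young replicate 2 -1.53 with 0.0544, with cells named one by one -1.08 with 0.110, and with mixed clusters kept -3.05 with 0.0395. Col4a4 had 43 and 34 UMIs in young and 88 and 49 in aged libraries and differed by -0.80 (SE 0.34, -1.54 to -0.06, adjusted p = 0.186). It was called without aged replicate 1, at -1.44 with an adjusted p of 0.000181.

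The mesangial comparison set largely different clusters against each other. One cluster, led by Gucy1a3 and Sfrp2, had 253 and 172 cells in the young but 26 and 16 in the aged libraries. The other, led by Serpine2 and Cxcl13, had 23 and 10 in the young but 651 and 515 in the aged. Within the first, Col4a1 was at 11.5 and 11.3 in young and 11.1 and 8.86 in aged libraries, and Col4a2 at 8.06 and 8.27 against 8.98 and 6.44. Within the other, Col4a1 was at 11.3 and 14.6 against 11.0 and 10.8. The first cluster alone gave Col4a1 a log2 difference of -0.14 (edgeR adjusted p = 0.880) and Col4a2 one of -0.02 (adjusted p = 0.990). Col4a3 there had 48, 30, 1 and 0 UMIs and differed by -2.26 (adjusted p = 0.500).

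Markers of podocytes and Col4a3 were both lower in aged than in young mesangial cells. The 5 podocyte genes least found in other classes, with Nphs1, Ptpro, Clic3 and Thsd7a among them, stood in mesangial cells at 0.640% and 1.29% of their podocyte level in young and at 0.277% and 0.0624% in aged libraries. Col4a3 stood at 2.18% and 1.84% of its podocyte level in young and at 0.862% and 0.474% in aged mesangial cells. Between the young libraries the markers and Col4a3 went opposite ways. Measured Col4a3 was 3.40 and 1.42 times what the marker share would give in young libraries, and 3.11 and 7.60 times in aged ones. Whether the markers and Col4a3 are linked was not tested. The whole list of 10 podocyte markers, all of them detected in every library, summed to 5.09 and 7.33 per 10000 in young and 3.50 and 2.98 in aged mesangial cells. Without cells that carried a podocyte marker UMI the log2 difference of Col4a3 was -1.98 (edgeR adjusted p = 0.0208), and that of Col4a4 was -0.17 (adjusted p = 0.905).

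In endothelial cells the same 5 genes stood at 0.518% and 0.917% in young and 0.529% and 0.491% in aged libraries, which overlap. Col4a3 stood at 2.07% and 1.92% against 1.46% and 0.982%. The list of 10 summed to 9.68 and 13.7 per 10000 in young and 8.70 and 8.43 in aged endothelial cells. Without cells that carried podocyte markers the endothelial log2 difference of Col4a3 was -0.65 (edgeR adjusted p = 0.0649).

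**Figure D3:**
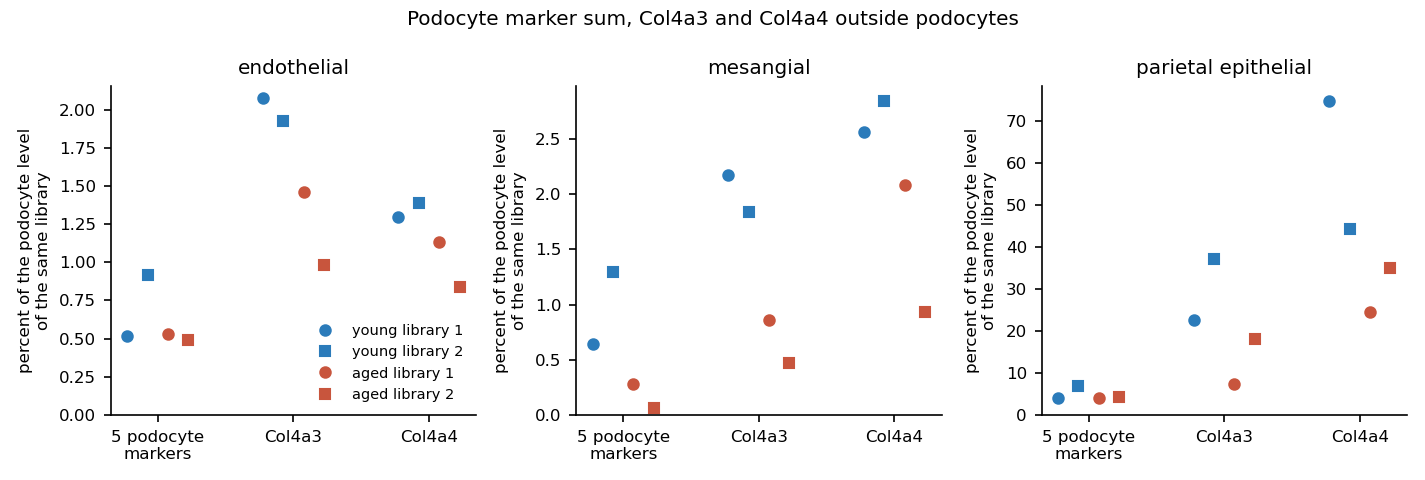
Level of 5 summed podocyte markers, of Col4a3 and of Col4a4 in endothelial, mesangial and parietal epithelial cells, each as a percent of its level in the podocytes of the same library (linear axes from 0 with a different range in each panel), 1 point per library. In mesangial cells Col4a3 lies at 2.18% and 1.84% in young and at 0.862% and 0.474% in aged libraries, and the markers are lower in the aged libraries too.

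The difference between cell classes in the response to age was tested directly with the age by class term of edgeR. Mesangial minus podocyte cells gave -1.57 for Col4a3 (SE 0.30, edgeR adjusted p = 0.00381), where 3.49% of genes were called. With other random seeds of the clustering the value was -1.55 (adjusted p = 0.0920) and -1.60 (adjusted p = 0.136). Endothelial minus podocyte cells gave -0.63 (SE 0.18, adjusted p = 0.0386), where 5.98% were called. This call was lost without young replicate 1 (-0.57, adjusted p = 0.0975), without aged replicate 2 (-0.38, adjusted p = 0.253) and with both other seeds (-0.72 and -0.75, adjusted p = 0.204 and 0.245). For Col4a4 the term was -0.82 in mesangial (adjusted p = 0.197) and -0.35 in endothelial cells (adjusted p = 0.347). Both terms of Col4a3 set podocytes against low counts in the other class, and both share the podocyte libraries.

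Between endothelial and mesangial cells, where 2.28% of genes were called, 0 chains were called and 2, Col4a1 and Col4a3, had a p below the threshold before adjustment. Endothelial against parietal epithelial cells (0.502% of genes called) gave 0 calls and 1 such chain, Col4a1, and mesangial against parietal epithelial cells (0.501%) gave 0 calls and 2, Col4a1 and Col4a2. DESeq2 was not run on these terms.

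**Figure D4:**
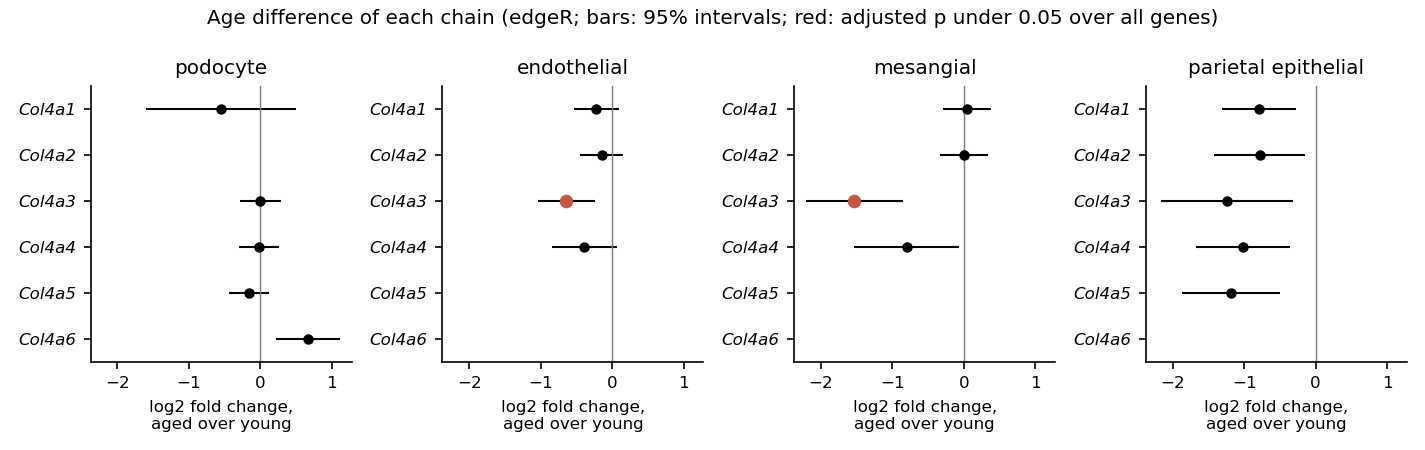
Log2 fold change of aged over young libraries with its 95% interval for each chain with 10 or more UMIs in every library, by cell class, from the edgeR test on sums per library. Chains called at an adjusted p under 0.05 are drawn in red, the intervals of Col4a3 and Col4a4 in podocytes lie around 0, and all 5 parietal epithelial values lie below 0 without a call.

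In parietal epithelial cells 5 of the 6 chains could be tested, and each was lower in both aged than in both young libraries. Of all 2273 genes tested there 23.1% had that order, and 0.880% were called by edgeR (20 genes, of which 6, or 0.264%, were lower). No chain was called, while all 5 had an unadjusted p under 0.05, as did 286 genes, and DESeq2 called 12 genes but no chain. Col4a5 had 33 and 38 UMIs in young and 16 and 21 in aged libraries and differed by -1.18 (SE 0.32, 95% interval -1.87 to -0.50, edgeR adjusted p = 0.100). Col4a4 had 70 and 42 against 24 and 41 UMIs and differed by -1.01 (SE 0.30, -1.67 to -0.36, adjusted p = 0.147). Col4a3 had 29 and 48 against 10 and 29 UMIs and differed by -1.24 (SE 0.43, -2.16 to -0.32, adjusted p = 0.226). Col4a1 differed by -0.79 (SE 0.24, adjusted p = 0.152) on 78 and 70 against 44 and 57 UMIs. Col4a2 differed by -0.78 (SE 0.30, adjusted p = 0.285) on 45 and 30 against 27 and 24 UMIs.

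Whether a parietal chain was called depended on which cells were counted and on single libraries. Col4a4 was called under 5 of 15 alternatives, among them another random seed of the clustering (-1.98, adjusted p = 0.00829), clustering without the 6 genes (-1.40, adjusted p = 0.000382) and leaving out young replicate 2 (-1.25, adjusted p = 0.0322) or aged replicate 2 (-1.37, adjusted p = 0.0252). Col4a3 was called under 4 of 12, among them leaving out young replicate 1 (-1.66, adjusted p = 0.00325) or aged replicate 2 (-2.11, adjusted p = 0.00103), and its difference was -0.72 (adjusted p = 0.649) without young replicate 2. Col4a5 was called under 1 of 15, clustering without the 6 genes (-0.87, adjusted p = 0.0455), and Col4a1 and Col4a2 under 0 of 15 each. The direction was the same in all of these alternatives.

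The parietal epithelial cells came from 2 clusters, each with 1 parietal marker and Tagln, a smooth muscle gene, among its top 10 genes. The one led by Pcp4, Ankrd1, Spp1 and Tagln counted 12 and 18 young cells against 21 and 14 aged ones, and the one led by Igfbp2, Igfbp6 and Prss23 counted 13 and 11 young cells against 7 and 9 aged ones. Col4a1 was at 11.1 and 9.13 in young and 4.87 and 5.404 in aged libraries of the Pcp4 cluster, and at 4.44 and 6.50 against 1.81 and 3.56 in the Igfbp2 cluster. Col4a5 was at 2.31 and 4.28 against 1.32 and 1.69 in the Pcp4 cluster and at 3.40 and 3.94 against 1.55 and 1.57 in the other. Both aged libraries were below both young ones in both clusters for Col4a1, Col4a2, Col4a4 and Col4a5. The share of all genes with that order in both clusters was not computed.

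Col4a3 and Col4a4 of parietal epithelial cells lay mostly in the Igfbp2 cluster. Col4a4 there was at 8.88 and 5.99 in young and 4.40 and 5.13 in aged libraries, against 2.31 and 2.00 and then 0.921 and 0.844 in the Pcp4 cluster. Col4a3 was at 3.85 and 7.01 in young and 1.81 and 4.13 in aged libraries of the Igfbp2 cluster, which overlap, and had 3, 7, 3 and 0 UMIs in the Pcp4 cluster. The Pcp4 cluster alone gave Col4a1 a log2 difference of -0.96 (edgeR adjusted p = 0.142), Col4a2 one of -1.08 (adjusted p = 0.269) and Col4a4 one of -1.25 (adjusted p = 0.315), with 15 of 956 tested genes called and no chain among them. Each of these values rests on few cells, and the clusters hold different shares of each age.

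**Figure D5:**
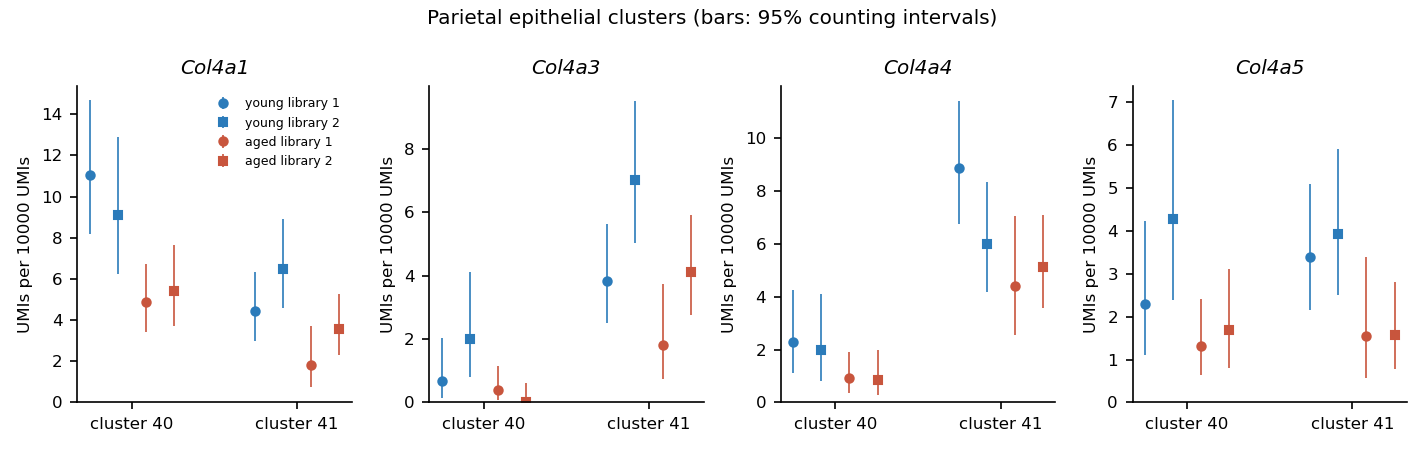
Levels of Col4a1, Col4a3, Col4a4 and Col4a5 in the 2 parietal epithelial clusters, as UMIs per 10000 UMIs of the cluster, 1 point per library with its 95% counting interval, young in blue and aged in red. Cluster 40 is the one led by Pcp4 and cluster 41 the one led by Igfbp2, where Col4a4 is at 8.88 and 5.99 in young and at 4.40 and 5.13 in aged libraries.

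Podocyte markers were present in the parietal epithelial cells of every library. The 5 genes stood at 3.98% and 7.0002% of their podocyte level in young and 3.94% and 4.40% in aged libraries. The 10 of the list summed to 11.7 and 18.7 per 10000 in young and to 11.6 and 13.1 in aged libraries, with 8, 10, 9 and 9 of them detected and Clic3 at 0 in 3 libraries. Col4a4 stood higher, at 74.7% and 44.2% of its podocyte level in young and at 24.4% and 35.0% in aged parietal epithelial cells, and Col4a5 at 160% and 154% against 73.2% and 83.6%. Within cells that had under 3 podocyte marker UMIs Col4a4 differed by -1.58 (edgeR adjusted p = 0.232).

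Against podocytes, the age by class term of parietal epithelial cells was -1.16 for Col4a3 (SE 0.31, edgeR adjusted p = 0.0247) and -0.94 for Col4a4 (SE 0.26, adjusted p = 0.0415), where 0.918% of genes were called. Both calls were lost without young replicate 1 (-1.47, adjusted p = 0.382 for Col4a3 and -0.52, adjusted p = 0.952 for Col4a4). Without aged replicate 1 they were -0.68 (adjusted p = 0.907) and -0.72 (adjusted p = 0.661), and without young replicate 2 Col4a3 was -0.79 (adjusted p = 0.860). The Pcp4 cluster alone gave -2.30 for Col4a3 (adjusted p = 0.748) and -1.05 for Col4a4 (adjusted p = 0.980). Both were called with either of the other random seeds of the clustering.

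In smooth muscle and renin cells, with 67 and 81 young and 62 and 38 aged cells, none of the 4 tested chains was called, where 1.67% of 3762 genes were. None had an unadjusted p under 0.05 and DESeq2 called 18 genes. Col4a1 had 99 and 112 UMIs in young and 78 and 97 in aged libraries and differed by 0.11 (SE 0.22, 95% interval -0.35 to 0.57, edgeR adjusted p = 0.899). Col4a5 had 20 and 25 against 13 and 12 UMIs and differed by -0.48 (SE 0.34, -1.20 to 0.23, adjusted p = 0.609). Col4a2 and Col4a4 overlapped between the ages, with intervals of -0.55 to 0.53 and -0.75 to 0.90.

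The balance of chains within a class was compared as a ratio of UMIs, 11 ratios in all. In podocytes Col4a3 to Col4a4 was 1.37 and 1.36 in young and 1.40 and 1.36 in aged libraries. In mesangial cells Col4a1 to Col4a2 was 1.44 and 1.36 in young and 1.42 and 1.48 in aged libraries, and in endothelial cells 1.56 and 1.65 against 1.59 and 1.47. These ratios overlapped between the ages. Podocyte Col4a5 to Col4a6 was 18.6 and 25.8 in young and 12.7 and 12.04 in aged libraries, which did not overlap. The other 3 ratios without overlap were also lower in the aged libraries. Mesangial Col4a3 to Col4a4 was 1.16 and 0.882 against 0.580 and 0.694. Endothelial Col4a3 to Col4a4 was 2.19 and 1.89 against 1.81 and 1.59, and podocyte Col4a5 to Col4a3 was 0.161 and 0.191 against 0.159 and 0.157. With 2 libraries against 2, an exact two-sided permutation test cannot go below 0.333, which was the p of each ratio without overlap. Age labels set at random would leave any ratio without overlap with that same probability, and some of these ratios share a chain. Adjusted values of the permutation test ran from 0.917 to 1.

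Type IV collagen is folded and modified in the endoplasmic reticulum, cross-linked outside the cell, and cut by proteases, and 5 lists of such genes were set beside the chains. Of 16 tested genes for folding and modification, 3 rose in aged podocytes and 0 fell, with a list median of 0.14 against 0.00 for all tested genes. Called genes made up 6.45% of all 10905 tested in podocytes (458 higher and 245 lower). P4ha2, a collagen prolyl hydroxylase, was at 41.9 and 45.3 CPM (UMIs scaled to the size of the library) in young and 66.3 and 77.9 in aged podocytes, a log2 rise of 0.73 (SE 0.14, edgeR adjusted p = 0.000629). Its adjusted p was 0.0555 without young replicate 1 and 0.158 without aged replicate 2. Plod2, a collagen lysyl hydroxylase, was at 280 and 299.7 CPM against 402 and 482, a rise of 0.61 (SE 0.13, adjusted p = 0.00242), with 0.0598 and 0.453 when the same libraries were left out. With mixed clusters kept the adjusted p was 0.0672 for P4ha2 and 0.0690 for Plod2.

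Of 5 tested proteases and inhibitors, 2 rose and 1 fell in aged podocytes, where 6.45% of all tested genes were called. Timp1, an inhibitor of matrix metalloproteinases, was at 0.783 and 0.924 CPM in young and 5.45 and 8.70 in aged podocytes, a rise of 3.05 (SE 0.47, edgeR adjusted p = 1.85e-05). Its adjusted p was 0.0639 without young replicate 1, 0.0889 with mixed clusters kept and 0.0681 with cells named one by one. Mmp14, a membrane-bound metalloproteinase, fell by 3.32 (SE 0.60, adjusted p = 0.000169), from 3.92 and 7.08 CPM to 0.182 and 0.849, with an adjusted p of 0.0957 with mixed clusters kept. Timp1 and Mmp14 both rest on few UMIs: in podocytes of aged replicate 1, 10 UMIs of Col4a1 corresponded to 1.82 CPM. Adamts1, a secreted protease, rose by 1.31 (SE 0.16, adjusted p = 1.01e-07), but without the mostly aged cluster the difference was 0.41 with an adjusted p of 0.246, with the other random seeds of the clustering 0.92 (0.110) and 0.77 (0.327), with mixed clusters kept 0.30 (0.844) and with cells named one by one 0.60 (0.554). In podocytes the 9 markers of smooth muscle and renin cells summed to 0.207 and 0.215 per 10000 in young and 0.525 and 0.486 in aged libraries, on 7, 5, 6 and 3 markers with Cnn1 at 0, and their part in these results was not tested. Of 9 partners in the basement membrane and 9 genes for cross-linking and reception, 0 were called by edgeR or DESeq2, with 0 and 2 under 0.05 before adjustment.

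In endothelial cells 3 of 18 tested genes for folding and modification rose and 0 fell, with a median of 0.11 against -0.01 for all genes. Called genes made up 6.24% of all 12993 tested there (535 higher and 276 lower). Markers of other cells were higher in the aged endothelial sums too. The 9 mesangial markers summed to 0.458 and 0.649 per 10000 in young and 1.10 and 1.21 in aged libraries, with 8 detected in each young and 9 in each aged one and Ednra at 0 in the young. The 8 macrophage markers summed to 0.0209 and 0.0652 against 0.173 and 0.193, with 2, 7, 8 and 8 detected. Their part in the endothelial results was not tested. P4ha2 was at 54.4 and 49.0 CPM in young and 89.4 and 91.5 in aged endothelial cells, a rise of 0.80 (edgeR adjusted p = 0.000998). Of 15 basement membrane partners 1 rose and 3 fell, with a median of -0.13. Col18a1, which encodes the precursor of endostatin, was at 104 and 93.7 CPM against 192 and 187, a rise of 0.94 (SE 0.14, adjusted p = 0.000250). Lamb1, a laminin chain, fell by 1.22 from 75.2 and 78.3 to 34.3 and 31.4 CPM (adjusted p = 1.21e-05). Npnt, nephronectin, fell by 1.16 (adjusted p = 0.000533), but the difference was -0.65 (adjusted p = 0.0696) without the clusters with activation genes. Col15a1 fell by 0.67 (adjusted p = 0.00376, but 0.0802 without aged replicate 1 and 0.0524 with mixed clusters kept).

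Of 6 tested proteases and inhibitors 2 rose in aged endothelial cells, where 6.24% of all tested genes were called. Among them was Timp1, which rose by 1.05 (edgeR adjusted p = 0.00599), from 6.08 and 6.04 CPM to 11.9 and 13.4. Wt1, a podocyte transcription factor at 3.04 and 6.28 CPM in young and 1.67 and 1.28 in aged endothelial cells, fell by 1.58 (adjusted p = 0.0167), but its adjusted p was 0.282 without young replicate 2, 0.0655 without aged replicate 2, 0.0523 without the clusters with activation genes, 0.0764 with mixed clusters kept and 0.0729 by DESeq2. Loxl4, a lysyl oxidase, had 1 and 0 UMIs in young and 42 and 32 in aged libraries, and was the 1 called gene of 8 for cross-linking and reception (adjusted p = 0.0537 by DESeq2). Without a filter on low counts 0 endothelial genes were called by edgeR, with 2297 under 0.05 before adjustment, so the endothelial calls above depend on that filter.

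In mesangial cells 2 of 17 tested genes for folding and modification rose and 0 fell, with a median of 0.20 against -0.02 for all genes. Called genes made up 7.70% of all 10941 tested there (529 higher and 313 lower). Of the 9 parietal epithelial markers, 3, 4, 4 and 4 were detected in mesangial cells. They summed to 3.40 and 3.43 per 10000 in young and 20.1 and 8.77 in aged libraries, with Pax8, Dkk3, Mal2 and Krt8 at 0 throughout. In parietal epithelial cells Dkk3 was at 2.94 to 4.49 and Pax8 at 0.721 to 2.25, while Mal2 was at 0 there too. The mesangial sums are not split by marker here, so they do not show a rise of the whole list. The 9 markers of smooth muscle and renin cells summed to 1.62 and 1.09 against 2.41 and 2.11, with Cnn1 at 0 throughout, and the part of either list in the results was not tested. Of 16 basement membrane partners 2 rose and 2 fell. Nid2, a nidogen that links laminin to type IV collagen, rose by 1.21 (edgeR adjusted p = 0.00490), from 20.5 and 22.8 CPM to 42.2 and 56.7. Npnt fell by 2.17 (adjusted p = 0.00306, but 0.107 with cells named one by one) and Fras1 by 2.14 (adjusted p = 0.00701). Mmp3, a secreted metalloproteinase, was at 3.90 and 7.32 CPM in young and 67.8 and 56.9 in aged mesangial cells, a rise of 3.56 (adjusted p = 6.79e-06).

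In mesangial cells Smad3, a regulator that carries signals of transforming growth factor beta, rose by 1.38 (edgeR adjusted p = 0.00559) and Zeb2 fell by 0.66 (adjusted p = 0.0246). Sec24d, a coat protein of vesicles that leave the endoplasmic reticulum, rose by 0.98 (adjusted p = 0.0125). Without young replicate 1 the adjusted p was 0.0865 for Nid2, 0.134 for Smad3, 0.126 for Sec24d, 0.145 for Zeb2 and 0.0631 for Fras1. Without young replicate 2 it was 0.0741 for Sec24d, 0.329 for Zeb2 and 0.0653 for Fras1. Without cells with a podocyte marker UMI it was 0.139 for Nid2, 0.0785 for Smad3 and 0.112 for Sec24d. Zeb2 was at -0.29 (adjusted p = 0.308) with mixed clusters kept, and Sec24d had an adjusted p of 0.0914 by DESeq2. In the mostly young cluster alone Nid2 was at -0.08 (adjusted p = 0.991), Smad3 at 0.95 (0.654), Sec24d at 1.13 (0.536), Zeb2 at -0.48 (0.389) and Npnt at -2.33 (0.532). The mesangial ages lay in different clusters for these genes too. In parietal epithelial and in smooth muscle and renin cells 0 genes of the 5 lists were called by edgeR or DESeq2, of 25 and 29 tested, with 2 and 4 under 0.05 before adjustment.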

How the data were processed

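The deposited matrices held raw UMI counts per gene and barcode, with no normalization, as the values showed. Reads were aligned to GRCm38 per the labels, whose protocol names Cell Ranger 3.1.0, while the file headers and the submitters' processing notes name 6.0.1. All gene IDs come from the files, and 52403 of 52636 were found in GENCODE vM21. Promoter sequences are those of RefSeq for GRCm38.p6.

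Barcodes with at least 500 genes and at most 20% mitochondrial UMIs were kept. The doublet caller of scanpy 1.11.5 marked only 134 (0.449%), so the highest scores were removed at 0.8% per 1000 cells, 1876 (6.28%) in all. Counts were clustered with leidenalg 0.10.2 at resolution 2.0 (2000 variable genes, 30 components, 15 neighbours), without integration. A cluster was named at a relative marker level of at least 0.35, and stayed unnamed where a second class reached 0.3. Cells with 3 or more UMIs of another class at a relative level of 0.25 were left out. These thresholds were set after marker levels had been seen.

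UMIs were summed per class and library and tested with edgeR 4.0.16 in R 4.3.3 (quasi-likelihood F test, TMM, default filter, at least 20 cells per library). A gene was called where its p, adjusted by Benjamini-Hochberg over all genes tested, was under 0.05. The SE of a log2 fold change is its size over the root of the F statistic. The age by class term had the library as a block. On simulated sums, 99 of 100 podocyte, 98 of 100 endothelial, 85 of 97 mesangial, 87 of 98 parietal epithelial and 96 of 100 smooth muscle genes with a 4-fold change were recovered, and 73 of 99, 74 of 98, 60 of 96, 35 of 93 and 40 of 91 with a 2-fold change. Among the unchanged genes of these simulations 5, 14, 10, 5 and 7 were called, in the same order of classes.

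Alternatives were DESeq2 1.42.0, other size factors, no filter, each library left out, a replicate block, other cell filters, mixed clusters kept, cells named one by one, and clustering without the 6 genes. A further 17 were chosen after seeing the data: leaving out a named cluster, 1 cluster alone, leaving out cells with podocyte markers, and clustering from random seeds 1 and 2 in place of 0. Distances were rounded so that a rerun gave the same clusters. The borders of clusters, and with them some calls, shifted with the seed. Intervals and limits from counts of 0 (3 counts) cover counting error only. Named list genes are, per class, up to 4 called genes in each direction with the smallest p, except that some genes are not reported here. The chains and the lists were chosen with earlier results of these data known.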

Additional observations from a re-analysis of the deposited data

Results flagged for a closer look

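The response to age differed between cell classes for 4 values, by the age by class term of edgeR. For Col4a3 the difference of log2 fold changes was -0.63 between endothelial and podocyte cells and -1.57 between mesangial and podocyte cells. In both pairs the Col4a3 counts of the other class were low, and both calls were lost when the clustering started from another random seed. Podocyte markers in mesangial cells were lower in the aged libraries too, whose part in the result was not tested. Between parietal epithelial and podocyte cells the difference was -1.16 for Col4a3 and -0.94 for Col4a4, and neither was called without young replicate 1 or without aged replicate 1. All 4 values share the podocyte libraries.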

How the results depend on the processing

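In podocytes 703 genes were called, and between 300 and 970 with 1 library left out. DESeq2 called 267, mixed clusters kept gave 104, cells named one by one 181, and clustering from seeds 1 and 2 gave 372 and 284. In endothelial cells 811 were called, and between 535 and 1009 with 1 library left out. DESeq2 called 526, mixed clusters kept gave 269, cells named one by one 513 and no filter on low counts 0 (2297 at an unadjusted p under 0.05). In mesangial cells 842 were called, and between 177 and 1698 with 1 library left out. DESeq2 called 415, no filter gave 1305, leaving out cells with a podocyte marker UMI 333 and the mostly young cluster alone 52. In parietal epithelial cells 20 were called, and between 30 and 61 with 1 library left out. DESeq2 called 12, no filter gave 71, mixed clusters kept 57, cells named one by one 147, clustering without the chains 167, seeds 1 and 2 gave 60 and 13, and cells with under 3 podocyte marker UMIs 1. In smooth muscle and renin cells 63 were called, and between 68 and 100 with 1 library left out. DESeq2 called 18, no filter gave 103, no doublet removal 99, mixed clusters kept 41 and seed 2 also 41.

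The labels do not say whether libraries of the same replicate number belong together. Deviations of same-numbered libraries correlated at 0.024 in podocytes, 0.102 in endothelial, 0.028 in mesangial, 0.026 in parietal epithelial and -0.054 in smooth muscle and renin cells. With a single difference between replicates per age group, these values cannot settle whether the libraries were paired. A replicate block gave 888 genes in podocytes, 1253 in endothelial, 1613 in mesangial, 99 in smooth muscle and renin and 0 in parietal epithelial cells (252 at an unadjusted p under 0.05). With the block, mesangial Col4a4 was called (-0.81, adjusted p = 0.0281).

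Endothelial Col4a3 ranged from -0.93 to -0.40 with 1 library left out. Its call was lost with other size factors (-0.64), DESeq2 (-0.64), no filter (-0.61), no doublet removal (-0.63), the strict filter on cells (-0.53), mixed clusters kept (-1.41), clustering without the chains (-0.66), seed 2 (-0.64) and without cells with podocyte markers (-0.65). Mesangial Col4a3 ranged from -2.005 to -1.12 with 1 library left out and was -3.05 with mixed clusters kept, where it was called, and its call was lost with cells named one by one (-1.08) and in the mostly young cluster alone (-2.26).

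For the difference between endothelial and podocyte cells 773 genes were called, 88 with seed 1, and 0 with mixed clusters kept (1423 at an unadjusted p under 0.05) and with seed 2 (1802). Col4a3 there ranged from -0.97 to -0.38 with 1 library left out, and its call was lost with mixed clusters kept (-1.47) and with seeds 1 and 2 (-0.72 and -0.75). For mesangial minus podocyte cells 441 genes were called, between 258 and 749 with 1 library left out, 805 with no filter, 0 with mixed clusters kept (1235 at an unadjusted p under 0.05), 85 and 23 with seeds 1 and 2 and 244 in the mostly young cluster alone. Col4a3 lost its call with mixed clusters kept (-2.73), both seeds (-1.55 and -1.60) and in that cluster alone (-2.56). For parietal epithelial minus podocyte cells 97 genes were called, between 10 and 74 with 1 library left out, 28 with mixed clusters kept, 190 when clustered without the chains, 171 with seed 1 and 25 in the Pcp4 cluster alone. Col4a4 ranged from -1.30 to -0.52, and its call was lost with no filter (-0.94), mixed clusters kept (-0.75) and in the Pcp4 cluster alone (-1.05). Col4a3 ranged from -2.02 to -0.68, and its call was lost with mixed clusters kept (-0.79) and in that cluster alone (-2.30).

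Values near 0 changed sign. Podocyte Col4a5 ranged from -0.37 to 0.066 with 1 library left out and was 0.020 with mixed clusters kept. Podocyte Col4a4 ranged from -0.11 to 0.081, with 0.11 for mixed clusters kept, 0.084 for cells named one by one and 0.028 and 0.054 for seeds 1 and 2. Podocyte Col4a3 ranged from -0.094 to 0.093, with 0.16, 0.13, 0.069 and 0.100 in the same order, 0.00030 with no filter and 0.0018 with the replicate block. In the mostly young mesangial cluster alone Col4a1 was -0.14, Col4a2 -0.024 and Nid2 -0.079. Mesangial Col4a2 was -0.00041 with the replicate block, -0.024 with no doublet removal, -0.026 under the strict filter, -3.6e-05 and -0.0021 with seeds 1 and 2 and -0.053 without cells with a podocyte marker UMI, and ranged from -0.067 to 0.088.

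The podocyte log2 ratio of Col4a3 to Col4a4 differed by -0.0015 under the strict filter and between -0.0033 and 0.036 with 1 library left out. In parietal epithelial cells Col4a1 to Col4a2 differed by 0.22 with no doublet removal, 0.21 with cells named one by one, 0.15 when clustered without the chains, 0.29 with seed 1 and between -0.30 and 0.24 with 1 library left out. There Col4a3 to Col4a4 ranged from -1.07 to 0.39 and Col4a5 to Col4a3 from -0.39 to 0.75. Apart from cases a value explains, the cause of these changes was not tested. Too few cells remained to test parietal epithelial cells with the strict filter or with no doublet removal, and no parietal cluster was led by more genes of another class than of its own, so leaving such a cluster out was not run. In parietal epithelial cells the tested chains had only between 10 and 78 UMIs per library, which limits what could be detected there.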
